A study of Mus musculus with 4 samples.

Results

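A set of 10 genes, Runx1 with its family, its partner and blood regulators, was followed through mesoderm differentiation of mouse embryonic stem cells. As a set they are called hemogenic factors here. They were chosen by name (Runx1, Runx2, Runx3, Cbfb, Ikzf1, Spi1, Myb, Gfi1, Gfi1b and Hhex), and all 10 were found among the 55487 gene IDs of the count table. RNA was sequenced at day 4 (d4) and day 2 (d2), with 2 libraries per day from 2 independent differentiations by the study's methods. All libraries came from wild-type E14-Tg2a cells, a feeder-independent line. For d4, cells spent 48 h as embryoid bodies in serum-free medium and were then dissociated and reaggregated for 40 h with human VEGF (5 ng/ml), BMP4 (0.5 ng/ml) and Activin A (8 ng/ml), a cardiogenic protocol in which an endothelial programme appears. For d2, cells were taken after the 48 h in serum-free medium, before these factors. RNA came from the whole culture, unsorted, so fewer cells of a type and less RNA per cell cannot be told apart.

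RUNX1 is a DNA-binding subunit of core binding factor, a complex in which CBFB, which does not itself contact DNA, strengthens binding. In the mouse embryo a primitive wave of blood, mostly nucleated red cells of the yolk sac, is run by factors such as TAL1, LMO2, GATA1 and KLF1. Definitive blood arises later from hemogenic endothelium, a step that needs RUNX1. GFI1 and GFI1B are repressors that act downstream of RUNX1 to silence the endothelial programme, PU.1 (Spi1) drives myeloid fates, Ikaros (Ikzf1) lymphoid ones, MYB is needed for definitive but not primitive red cells, and HHEX is a homeobox factor of blood and endothelial progenitors and of endoderm.

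The start sites of these genes are shown first, since the members that rose together can be compared there in sequence. RefSeq windows of 300 bases on GRCm38.p6, from 250 before to 50 after a start, were matched to 9 of the 10 genes (all but Spi1), 13 windows in all. Runx1 has a distal and a proximal start 128745 bases apart on chromosome 16. The distal windows of Runx1 and Runx3 and the window of Runx2 each held the same pair of RUNX matches, printed here with 8 bases on each side and with the matches (ACCACA, the reverse complement of TGTGGT) in capitals:
Runx1, chr16:92826025-92826054, minus strand: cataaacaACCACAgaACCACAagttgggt
Runx2, chr17:44814583-44814612, minus strand: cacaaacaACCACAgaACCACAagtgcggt
Runx3, chr4:135120503-135120532, plus strand: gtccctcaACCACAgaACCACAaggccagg
The pair began 28 bases after the start in Runx1, 23 bases after it in Runx2 and 134 bases before it in Runx3. The letters ACCACAGAACCACA, searched on both strands, stood in 4 of 32851 windows (0.0122%), these 3 and that of Gm16225, which overlaps the Runx3 window on the other strand. The paired letters were set to the pair and spacer of the RUNX gene windows, so finding them there is no separate evidence. Pairs with another spacer were not counted. A single TGTGGT stood in 16.8% of all windows.

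The stretches before the start are given for Runx1, for the 3 other genes that rose and whose stretch held an ETS match, and for Myb, which fell, with the match to CNGGAAG (either strand) in capitals:
Runx1 distal, chr16:92826075-92826324, minus strand: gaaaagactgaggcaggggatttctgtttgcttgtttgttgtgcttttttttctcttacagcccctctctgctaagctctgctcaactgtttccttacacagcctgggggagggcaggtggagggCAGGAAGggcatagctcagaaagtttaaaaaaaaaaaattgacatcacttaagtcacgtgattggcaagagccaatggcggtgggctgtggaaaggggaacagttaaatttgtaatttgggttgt
Runx1 proximal, chr16:92697330-92697579, minus strand: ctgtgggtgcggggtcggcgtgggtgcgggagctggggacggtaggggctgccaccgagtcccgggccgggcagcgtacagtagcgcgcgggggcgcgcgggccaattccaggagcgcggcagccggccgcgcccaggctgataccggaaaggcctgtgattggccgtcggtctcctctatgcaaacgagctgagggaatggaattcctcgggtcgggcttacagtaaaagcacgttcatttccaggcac
Ikzf1 downstream start, chr11:11689927-11690176, plus strand: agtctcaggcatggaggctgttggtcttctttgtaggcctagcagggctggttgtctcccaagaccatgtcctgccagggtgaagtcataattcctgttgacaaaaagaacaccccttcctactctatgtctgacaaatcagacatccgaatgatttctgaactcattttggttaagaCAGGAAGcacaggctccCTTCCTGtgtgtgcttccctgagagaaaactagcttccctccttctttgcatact
Gfi1 downstream start, chr5:107724344-107724593, minus strand: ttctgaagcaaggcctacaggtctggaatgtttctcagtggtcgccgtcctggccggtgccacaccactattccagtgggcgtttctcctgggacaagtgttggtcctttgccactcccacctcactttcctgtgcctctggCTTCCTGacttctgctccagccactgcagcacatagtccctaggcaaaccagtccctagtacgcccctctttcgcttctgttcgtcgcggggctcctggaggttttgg
Hhex, chr19:37434591-37434840, plus strand: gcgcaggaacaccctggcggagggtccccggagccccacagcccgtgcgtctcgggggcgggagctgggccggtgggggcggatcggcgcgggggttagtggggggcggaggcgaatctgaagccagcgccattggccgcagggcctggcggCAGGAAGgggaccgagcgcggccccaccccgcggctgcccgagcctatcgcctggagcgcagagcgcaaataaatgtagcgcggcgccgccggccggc
Myb, chr10:21160985-21161234, minus strand: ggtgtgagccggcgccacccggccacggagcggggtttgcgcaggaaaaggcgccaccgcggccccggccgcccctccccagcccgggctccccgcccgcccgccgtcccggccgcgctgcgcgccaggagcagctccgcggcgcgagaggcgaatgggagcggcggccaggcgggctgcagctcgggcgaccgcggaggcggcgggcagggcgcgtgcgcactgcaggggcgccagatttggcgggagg
The ETS letters were in 5 of the 13 windows of these genes, against 31.9% of all windows. They began 125 bases before the distal Runx1 start, 72 and 55 bases before the downstream Ikzf1 start, 108 bases before the downstream Gfi1 start (with another match 10 bases after it) and 98 bases before the Hhex start, and in Cbfb 31 bases after the start. The proximal Runx1 and Runx3 windows, the upstream Ikzf1 and Gfi1 windows and the Myb and Gfi1b windows held no match to the ETS or RUNX letters. The printed stretches were chosen by match and direction, and a link of ETS letters to the rise was not tested. The GATA letters AGATAA were in 0 of the 13 windows and in 11.2% of all windows. For each motif only the exact letters were searched, and other forms of a site were not counted. Examples are TGATAA before the Gfi1b start, CCGGAAA before the proximal Runx1 start, CAGGAAA before the Myb start and TGCGGT beside the Runx2 pair. The distal Runx1 window was 45.0% GC and the proximal one 69.0%. Counts per gene do not tell the starts apart.

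Total counts were 11397439 and 16851485 in the d4 libraries, against 12068584 and 14038796 in the d2 libraries, so that 3 counts, the limit a count of 0 allows, stood for 0.176 to 0.254 CPM (counts scaled to a common library total with TMM factors). In both days replicate 2 had lower values than replicate 1 at GC-rich genes (Spearman rho of the difference with GC content across the tested genes −0.50 at d4 and −0.74 at d2). A gene was tested where its summed count passed a proportion test against 0.5 CPM in either day, which left 14932 genes. Of these, 12.9% were called higher at d4 and 11.4% lower, at an adjusted p under 0.01 (edgeR quasi-likelihood test). Of the 10 hemogenic factors, the test took in 9 and called 6 of them higher at d4 (Runx1, Ikzf1, Spi1, Gfi1, Gfi1b and Hhex) and 1 lower (Myb), and Runx3 and Cbfb did not pass. Runx2 lay under the filter. Ikzf1, Spi1, Gfi1, Gfi1b and Runx3 entered the test only through their d4 counts, as did 1176 genes in all, of which 664 were called higher. In TMM CPM both d4 libraries lay above both d2 libraries for 9 members and below them for Myb, against 35.8% and 35.2% of the tested genes. The median log2 fold change of the 9 tested members was 5.22, against −0.027 over all tested genes. On log2(CPM + 0.5), over all 10, it was 3.41.

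**Figure D1:**
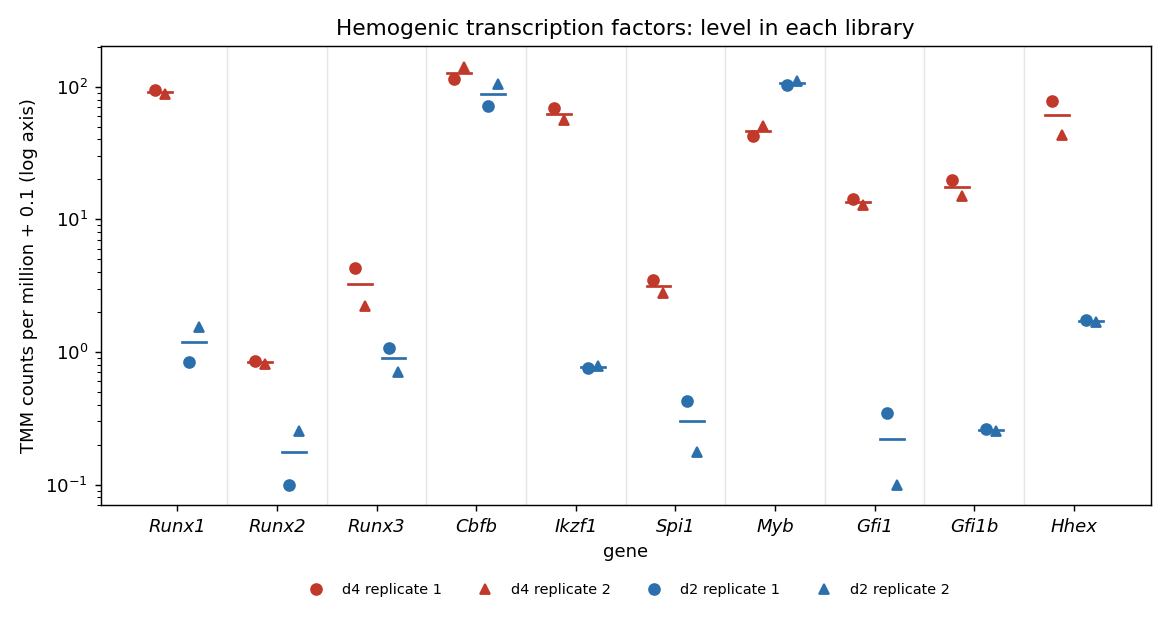
Level of each hemogenic factor in each library, in TMM CPM plus 0.1 on a log axis, with d4 in red, d2 in blue, a symbol per library and a bar at the mean of 2 libraries. In the plot 6 genes stand more than 10-fold apart between the days, Cbfb and Myb are high in all 4 libraries, and Runx2 stays under 1 CPM.

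The RUNX subunits come first. Runx1 (ENSMUSG00000022952.17) lies on the minus strand of chromosome 16 at 92601466 to 92826149 (GRCm38). It had 1113 and 1495 counts in the d4 libraries, against 9 and 19 counts in the d2 libraries. The d4 libraries were nearly level at 94.1 and 87.8 CPM, far above the d2 libraries at 0.735 and 1.44 CPM. Runx1 rose 82.4-fold (log2 fold change 6.36 ± 0.35 SE, adjusted p = 6.39e-05). By fold it ranked 257 of the 1933 genes called higher.

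Runx3, the family member of T cells and sensory neurons, had 50 and 36 counts at d4, against 12 and 8 counts at d2. Both d4 libraries were above both d2 libraries, but the d4 libraries stood apart from each other, at 4.23 and 2.11 CPM. Its log2 fold change was 1.97 ± 0.50 SE with an adjusted p of 0.0194. The adjusted p was 0.0215 with DESeq2 and 0.0337 with limma voom. It was 0.00908 after a GC trend within days was removed, a setting added after seeing the data. Runx3 passed in 6 of 21 alternatives. Runx2, the master regulator of bone formation, had 9 and 12 counts at d4 and 0 and 2 counts at d2. The ratio of its summed counts was 9.26 (95% interval 2.26 to 81.4, exact binomial, counting error only). With no filter its log2 fold change was 3.09 ± 0.92 SE and its adjusted p was 0.00426, in a setting that called 2901 of 26543 genes higher. The markers of bone and cartilage showed no common direction, with 5 of 10 tested, 1 higher (Sox9), 1 lower (Acan) and Ibsp and Col10a1 at 0 counts in all 4 libraries.

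Cbfb, the partner of all RUNX proteins, had 1352 and 2400 counts at d4, against 871 and 1370 counts at d2. In TMM CPM it was at 114 and 141 in the d4 libraries and at 71.1 and 104 in the d2 libraries, so the days come close to each other. Its log2 fold change of 0.54 ± 0.25 SE did not pass (adjusted p = 0.132). Cbfb was thus abundant on both days, while the level of its DNA-binding partners differed between them.

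Levels of different genes were compared per kilobase of exon (CPM per kb), with all annotated exons of a gene merged. This length was 12025 bases for Runx1 and 5056 bases for Hhex. Which transcripts were present was not tested, and ranks and ratios between genes depend on these lengths. The 3 RUNX genes together reached 8.75 and 7.81 CPM per kb at d4, against 0.257 and 0.258 CPM per kb at d2. Cbfb stood at 3.75 and 5.19 times the RUNX sum in the d4 libraries, against 79.5 and 116 times in the d2 libraries. Runx1 made up 89.4% and 93.6% of the RUNX sum per kb at d4 and 23.8% and 46.4% of it at d2. In plain counts its share of the RUNX reads was 95.0% (95% exact binomial interval 93.6 to 96.1) and 96.9% (95.9 to 97.7) at d4, and 42.9% (21.8 to 66.0, of 21 counts) and 65.5% (45.7 to 82.1, of 29 counts) at d2.

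**Figure D2:**
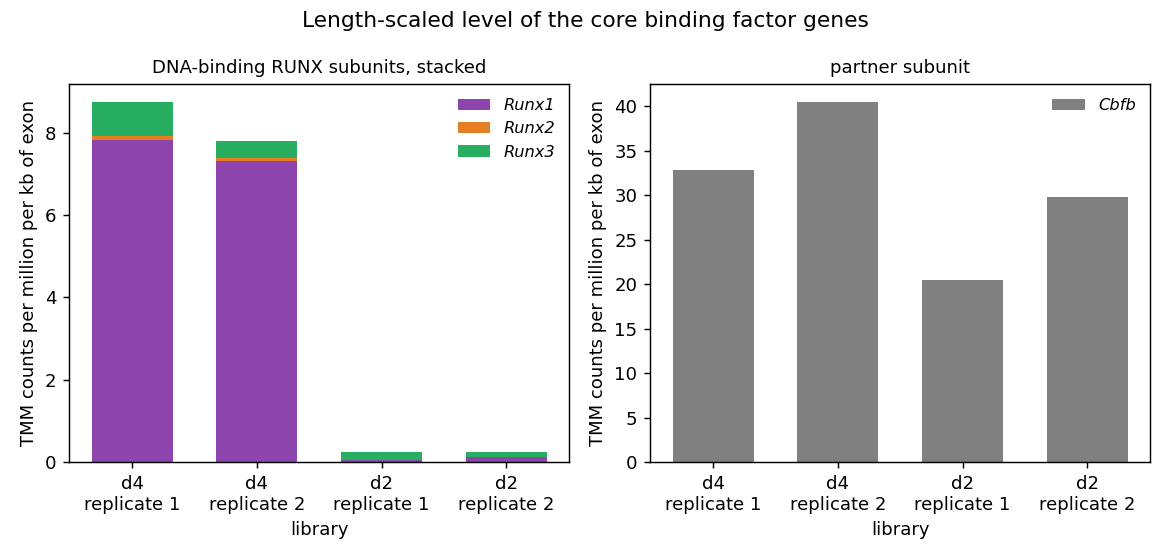
Level per library of the 3 RUNX genes (left, stacked) and of Cbfb (right), in TMM CPM per kb of exon, with d4 left of d2. The RUNX sum is 8.75 and 7.81 at d4 against 0.257 and 0.258 at d2 and is mostly Runx1 at d4, while Cbfb is above 20 in every library.

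Gfi1 and Gfi1b encode a pair of related zinc finger repressors. Gfi1 (ENSMUSG00000029275.18, chromosome 5) had 167 and 215 counts at d4, against 3 and 0 counts at d2. The d4 libraries agreed closely, at 14.1 and 12.6 CPM, and the d2 libraries were at the detection limit. The ratio of summed counts was 112 (95% interval 38.1 to 547), and the fitted log2 fold change was 6.71 ± 0.64 SE (adjusted p = 0.000331). That fitted value rests on the 3 counts of d2 replicate 1. It was 10.54 without that library, where d2 has no Gfi1 count, and 5.67 without d2 replicate 2.

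Gfi1b (ENSMUSG00000026815.14, chromosome 2), which is needed for red cells and megakaryocytes, had 234 and 254 counts at d4 and 2 counts in each d2 library. The d4 libraries were at 19.8 and 14.9 CPM, against 0.163 and 0.152 CPM at d2, with no overlap. Its log2 fold change was 6.70 ± 0.41 SE (adjusted p = 8.60e-05), and the ratio of summed counts was 108 (95% interval 41.7 to 396). Transcripts of both genes were thus present in the culture at d4, and whether the same cells held both was not tested. Gfi1 gave 41.6% and 45.8% of the counts of the pair in the d4 libraries, and 29.1% and 32.7% of its level per kb, so Gfi1b was the higher of the pair per length in both.

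Ikzf1 and Spi1 are regulators of lymphoid and myeloid fates that are also active in early progenitors. Ikzf1 (ENSMUSG00000018654.17, chromosome 11) had 814 and 954 counts at d4, against 8 and 9 counts at d2. It stood at 68.8 and 56.0 CPM in the d4 libraries and at 0.653 and 0.682 CPM in the d2 libraries. Its log2 fold change was 6.53 ± 0.30 SE (adjusted p = 4.49e-05), the smallest adjusted p among the members. Ikzf1 was also set against its family (the 5 Ikaros genes). It gave 69.3% (95% exact binomial interval 66.6 to 72.0) and 54.0% (51.7 to 56.4) of the Ikaros family counts in the d4 libraries, against 2.63% (1.14 to 5.12) and 2.46% (1.13 to 4.62) in the d2 libraries. The d4 libraries differed in this share beyond counting error. Replicate 2 had lower values at GC-rich genes, and Ikzf1 (46.9% GC) is richer in GC than Ikzf2 (40.1%) and Ikzf5 (40.3%). The part of GC content in this difference was not tested.

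Spi1 (ENSMUSG00000002111.8, chromosome 2) was low throughout. It had 40 and 46 counts at d4, against 4 and 1 counts at d2. At 3.38 and 2.70 CPM in the d4 libraries, against 0.327 and 0.0758 CPM in the d2 libraries, the days did not overlap. Its log2 fold change was 3.88 ± 0.56 SE (adjusted p = 0.00196), and it was 5.16 without d2 replicate 1 and 3.13 without d2 replicate 2. The ratio of summed counts was 15.2 (95% interval 6.25 to 47.9). Its close relatives Spib and Spic, ETS factors of B cells and of red pulp macrophages, added few counts, and Spi1 gave 95.2% and 93.9% of the 42 and 49 counts of the 3 genes at d4, against 33.3% and 7.14% of 12 and 14 counts at d2.

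Hhex (ENSMUSG00000024986.12, chromosome 19) had 928 and 729 counts at d4, against 20 and 21 counts at d2. The d2 libraries were level at 1.63 and 1.59 CPM. The d4 libraries lay far above them but apart from each other, at 78.4 and 42.8 CPM. Hhex rose 37.4-fold (log2 fold change 5.22 ± 0.39 SE, adjusted p = 0.000139). Since Hhex is also an endoderm gene, a list of endoderm markers was read beside it. Of 15 such genes 9 were tested, 5 were higher and 2 lower at d4, with a median log2 fold change of 5.26 (4.69 with the gene at 0 counts on d2 set to its bound). The higher ones were Cxcr4, a chemokine receptor also found on mesoderm and endothelium, Lhx1, a homeobox gene also of mesoderm, Sox17, an endoderm factor also of endothelium, with 96 and 69 counts at d4 and 0 in each d2 library, Cer1, a secreted antagonist of anterior endoderm, with 59 and 32 counts at d4 and 0 and 2 at d2, and Spink1, a protease inhibitor, with 32 and 20 counts at d4 and 1 and 0 at d2. Of the 9 tested, 7 passed the filter only through d4. The lower ones were Cldn6 and Otx2, which epiblast cells also express. The summed level of the list was 156 and 136 CPM in the d4 libraries, against 399 and 423 CPM in the d2 libraries, the d2 value mostly from Otx2 (mean 246 CPM) and Cldn6 (163 CPM). The endoderm factors Foxa1 and Foxa2 and the endoderm products Afp, Ttr and Apoa1 lay under the filter. The part of endoderm cells in the Hhex level was not tested.

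Myb was the exception. Myb (ENSMUSG00000019982.15, chromosome 10) had 503 and 853 counts at d4, against 1268 and 1445 counts at d2. It stood at 42.5 and 50.1 CPM in the d4 libraries and at 104 and 110 CPM in the d2 libraries, so the days did not overlap and the replicates lay close together. Myb fell by 1.20 ± 0.20 (SE) on the log2 scale, 2.30-fold lower at d4 (adjusted p = 0.00349). The call was lost in 6 alternatives, each with 1 library left out. With edgeR the adjusted p was 0.0463 without d2 replicate 1, 0.0484 without d2 replicate 2 and 0.0117 without d4 replicate 1, and with DESeq2 without these libraries it was 0.0580, 0.0699 and 0.0175. Mybl1 and Mybl2, its relatives of germ cells and of dividing cells, did not pass the test. Myb gave 38.8% and 42.9% of the counts of the 3 MYB genes at d4, against 47.0% and 55.9% at d2. Of 12 pluripotency markers, 11 were tested and 9 were lower at d4, among them Pou5f1 (log2 fold change −7.71 ± 0.30 SE), and their summed level was 52.1 and 47.5 CPM at d4 and 1508 and 1187 CPM at d2. Whether the stem cell state carries the Myb of d2 was not tested.

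Ranked by level per kb at d4, the order was Cbfb (36.7 ± 5.4 CPM per kb, SD, n = 2), Hhex (12.0 ± 5.0), Ikzf1 (10.8 ± 1.6), Gfi1b (9.48 ± 1.88), Runx1 (7.56 ± 0.37), Myb (5.18 ± 0.60), Gfi1 (4.20 ± 0.33), Spi1 (1.13 ± 0.18), Runx3 (0.634 ± 0.298) and Runx2 (0.0829 ± 0.0045). The libraries of Hhex and Ikzf1 overlapped, as did those of Ikzf1 and Gfi1b, and all other neighbours in this order were apart in both libraries. The order holds only for the merged exon lengths used. At d2 Cbfb (25.1 ± 6.7 CPM per kb) and Myb (11.9 ± 0.5) led, and the other 8 lay between 0.00858 (Runx2) and 0.319 (Hhex) CPM per kb. The 3 tested genes nearest to Runx1 by distance over the 4 libraries on log2(CPM + 1) were Rspo3 (distance 0.349), a secreted enhancer of WNT signalling, Tnfaip2 (0.366), an endothelial gene induced by TNF, and Fbln2 (0.451), a matrix fibulin.

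A list of regulators of primitive blood was compared with these factors. Some of its genes, such as Gata2 and Fli1, are not particular to primitive blood. All 12 entered the test, 5 of them only through d4, and it called 11 higher at d4 and 0 lower, while Ldb1, the adaptor that bridges LIM and GATA complexes, did not pass (adjusted p = 0.0298). Their median log2 fold change was 5.55. Tal1, the factor that commits mesoderm to blood, had 3681 and 4372 counts at d4, against 9 and 19 counts at d2, the same d2 counts as Runx1. Lmo2, its bridging partner, had 1667 and 1967 counts at d4 and 23 and 32 counts at d2. Gata2, of early progenitors, had 776 and 974 counts at d4 and 2 and 6 counts at d2. Fli1, an ETS factor of blood and endothelium, had 920 and 1563 counts at d4 and 1 and 0 counts at d2, a ratio of 2189 with a 95% interval of 392.5 to 86490. The summed level of the 12 genes was 1050 and 915 CPM in the d4 libraries and 142 and 111 CPM in the d2 libraries.

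The other definitive and stem cell regulators were mixed. Of 16 genes 13 were tested (4 only through d4 and 3 only through d2), 5 were higher, 2 lower and 6 did not pass, with a median log2 fold change of 0.97. Erg, an ETS factor of stem cells and endothelium, had 484 and 624 counts at d4 and 3 and 5 counts at d2 (log2 fold change 6.91 ± 0.34 SE, adjusted p = 4.52e-05). Gata3, a factor of T cells and of other tissues, had 99 and 156 counts at d4 and 1 and 0 counts at d2. The B cell factor Ebf1 fell to 18 and 19 counts at d4, against 162 and 201 counts at d2, and Bcl11a, of fetal globin switching and B cells, fell to 15 and 30 counts, against 317 and 377 counts. Both of these also act in neural cells. The lists were not tested against each other. Their borders are loose, since Erg is placed here and Fli1, also an ETS factor of endothelium, in the primitive list.

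**Figure D3:**
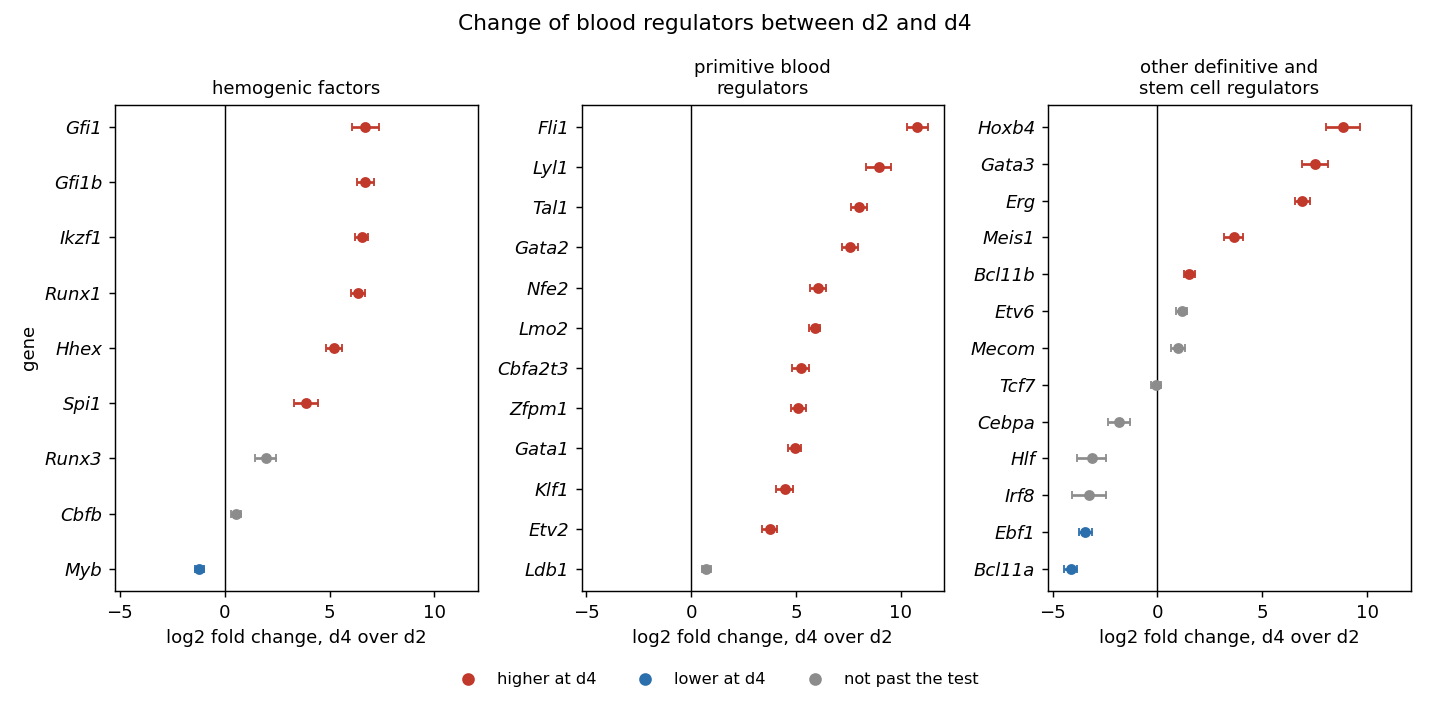
Log2 fold change of d4 over d2 with its SE for the tested hemogenic factors, primitive blood regulators and other definitive and stem cell regulators, red where higher, blue where lower and grey where the edgeR test was not passed. Of the genes shown, 11 of 12 in the primitive list and 6 of 9 hemogenic factors are higher, and 5 of 13 in the third panel. Hoxb4 there had 0 counts at d2 and its fitted value is no bound. Some genes of the primitive list are not particular to primitive blood.

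Transcripts of genes for cofactors of RUNX and GFI factors were counted on both days. All 16 were tested, 3 were higher and 1 lower, with a median log2 fold change of −0.24. Rcor1, the CoREST subunit that partners the demethylase LSD1, rose 3.61-fold. Tle3 and Hipk2, a Groucho corepressor and a kinase of RUNX1, rose 3.42-fold and 2.41-fold. Tle4, another Groucho corepressor, was 6.01-fold lower at d4. Among 10 family relatives of the members, 7 were tested and 2 were higher. These were Ikzf2 (Helios), with 146 and 351 counts at d4 and 36 and 43 at d2, and Runx1t1 (ETO), with 84 and 236 counts at d4 and 26 and 37 at d2.

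Genes known as RUNX1 targets in blood were read next. Of 10 such genes 4 were tested, all 4 of them only through d4, and these 4 were higher. Itga2b, the integrin CD41 of early blood progenitors and platelets, had 1060 and 1113 counts at d4, against 6 and 3 counts at d2 (log2 fold change 7.73 ± 0.40 SE, adjusted p = 5.52e-05). Mpo, the neutrophil peroxidase, had 34 and 36 counts at d4 and 1 count in each d2 library. Csf3r, the G-CSF receptor, had 35 and 31 counts at d4 and 0 and 3 counts at d2. Elane, Csf2, Pf4 and Cd4 had 0 counts in all 4 libraries. Csf1r, the macrophage growth factor receptor, and Il3 were also under the filter.

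Markers were then read for each blood lineage. Of 10 primitive red cell markers 7 were tested, 6 of them only through d4, and these 7 were higher, with a summed level of 370 and 239 CPM in the d4 libraries and 5.14 and 5.38 CPM in the d2 libraries. The embryonic globin Hbb-bh1 led them with 3632 and 3064 counts at d4, against 2 and 8 at d2, though reads shared among globin copies were not counted. Alas2, of red cell heme synthesis, had 302 and 388 counts at d4 and 0 at d2, at least 102-fold higher than 3 counts per d2 library. Of 8 platelet lineage markers 2 were tested, both only through d4, and higher, among them Itga2b, and Pf4, Gp1bb, Ppbp and Treml1 had 0 counts throughout. Of 12 macrophage and pan-leukocyte markers 10 lay under the filter, and Ptprc (CD45) and Adgre1 (F4/80) had 0 counts in all 4 libraries. The list's summed level was 15.0 and 6.58 CPM at d4 and 26.5 and 20.1 CPM at d2. The d2 value came mostly from Coro1a, which was lower at d4. Laptm5, the other tested gene of the list, had 141 and 69 counts at d4 and 17 and 9 at d2. It narrowly failed the test (log2 fold change 2.93 ± 0.63 SE, adjusted p = 0.0101). Of 11 lymphocyte markers 1 was tested, Lck, which was lower at d4, and Rag1, Rag2, Il7r, Cd4 and Dntt had 0 counts. Their summed level was 6.34 and 4.70 CPM at d4 and 15.8 CPM in each d2 library.

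Most endothelial markers were also higher at d4. Of 14 such genes 13 were tested, 7 of them only through d4, and 11 were higher, with a median log2 fold change of 6.29 (5.19 with the genes at 0 counts on d2 set to their bound). Their summed level was 1511 and 1102 CPM in the d4 libraries, against 72.5 and 63.6 CPM in the d2 libraries. Eng (adjusted p = 0.0526) and Cd34 (adjusted p = 0.232), surface proteins of endothelium and blood progenitors, did not pass, and Emcn lay under the filter. Kdr, the VEGF receptor of endothelial and blood progenitors, had 7105 and 7864 counts at d4 and 8 and 9 at d2. Cdh5 (VE-cadherin) had 1607 and 1523 counts at d4 and 1 in each d2 library. Tie1 had 854 and 869 at d4 and 1 and 2 at d2. Cdh5 and Tie1 mark endothelium, hemogenic endothelium included. Which cells carry Runx1, Gfi1 and Gfi1b, endothelial, red or other, was not tested.

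**Figure D4:**
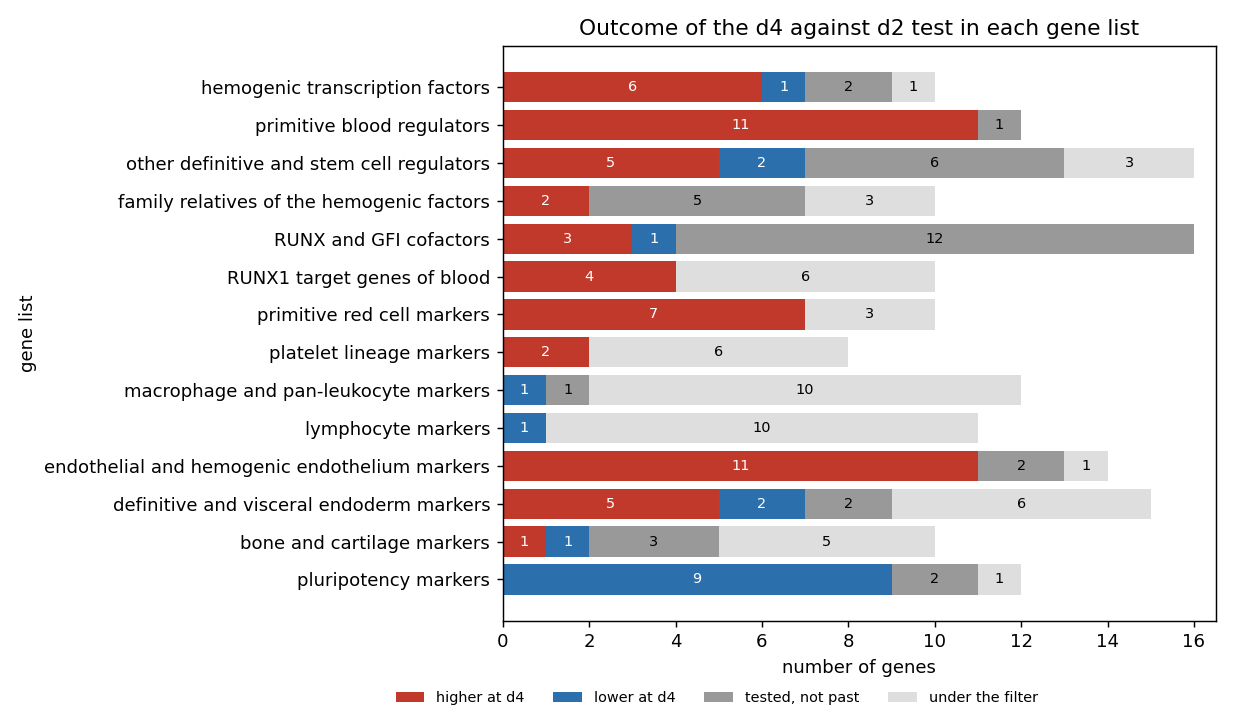
Number of genes in each list that were higher at d4 (red), lower at d4 (blue), tested but not past an adjusted p of 0.01 (dark grey) or under the filter (light grey). Primitive blood regulators, red cell and endothelial markers are mostly higher, while 10 of 12 macrophage and pan-leukocyte markers and 10 of 11 lymphocyte markers are under the filter.

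The calls rest on 2 libraries per day, for which an exact permutation test of a single gene could not give a two-sided p under 0.333. With d2 replicate 1 left out the edgeR test called 0 of 14932 genes (lowest adjusted p 0.0181, though 6343 genes had an unadjusted p under 0.05), and likewise 0 with d2 replicate 2 left out (0.0172 and 6011 genes), so all 7 calls among the members were lost there, while DESeq2 called 5 members higher and 0 lower in each of these sets.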

How the data were processed

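Whole-number counts per gene were deposited by the authors, without filter or normalization. By the paper's methods and the submitters' processing notes, paired-end strand-specific reads of 75 bp were trimmed with cutadapt, aligned to mm10/GRCm38 with STAR and counted with featureCounts, without reads that map to several places. The methods name the annotation in more than 1 way. Symbols for 55141 of 55487 IDs and exon lengths came from GENCODE M21 (GRCm38), and start-site sequences from RefSeq (GRCm38.p6). Total counts per library were 11397439 to 16851485.

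Genes were kept where the counts of either day, summed, exceeded 0.5 CPM in a one-sided proportion test (adjusted p under 0.05). The days were compared in edgeR 4.0.16 under R 4.3.3 with TMM factors and a two-sided quasi-likelihood test of a model that held only the day, at a Benjamini-Hochberg adjusted p under 0.01, and the procedure was tested on simulated data. DESeq2 1.42.0 and limma 3.58.1 were alternatives, along with other scalings, filters, thresholds, thinning and leaving out each library. SE is the log2 fold change over the root of the F statistic. All members are named, and from each other list the markers at 0 and those past the test with the lowest adjusted p, at most 4. Other genes named were chosen after their values were seen. Members and lists were chosen with earlier results of these data known. Some genes of the lists are not reported here by name.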

Additional observations from a re-analysis of the deposited data

How the results depend on the processing

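The 6 members higher, 1 lower and 11 primitive regulators higher at d4 stayed at 6, 1 and 11 with DESeq2 size factors, upper-quartile factors, either other filter, DESeq2, limma voom, a minimum log2 fold change of 1 and thinning to the smallest library, and none of the 9 tested members reversed its direction under any of 21 alternatives (Runx2 had a value only with no filter). With no filter they were 8, 1 and 12 (2901 higher and 2873 lower of 26543 genes). At an adjusted p under 0.05 they were 7, 1 and 12 (2991 and 2679 of 14932 genes). With the replicate block they were 8, 1 and 12, and over all genes 3478 were higher and 3496 lower, against 1933 and 1695 without it. The settings that kept 6, 1 and 11 called 1797 to 2182 genes higher and 1613 to 1955 lower over all genes. The labels share only replicate numbers, and same-numbered libraries deviated together (correlation of deviations 0.57). With the GC trend within days removed, an alternative added after seeing the data, the member and primitive numbers were 7, 1 and 12 (2765 and 2386 over all genes). With the replicate block as well they were 8, 1 and 12 (3314 and 3286 over all genes). Leaving out 1 library at a time, with edgeR or with DESeq2 (these DESeq2 fits were added after seeing the data), gave 0 to 7 members higher, 0 to 1 lower and 0 to 11 primitive regulators higher. In such fits the lone library of a day is assumed to vary like the other day. Over all genes edgeR then called 2139 higher and 1896 lower without d4 replicate 1 and 2267 and 2475 without d4 replicate 2. DESeq2 called 1049 and 730 without d2 replicate 1, 985 and 722 without d2 replicate 2, 1248 and 1135 without d4 replicate 1, and 1268 and 1457 without d4 replicate 2. The cause was not tested. Spi1 and Myb lost their call in 6 of 21 alternatives each, all with a library left out, Gfi1 in 4 and the other 4 called members in 2, while Runx3 passed in 6 and Cbfb in 2, with the replicate block (adjusted p = 0.00773) and with the block and the GC trend removed (adjusted p = 0.00724). At 0 to 5 counts per library, Runx2, Gfi1, Gfi1b and Spi1 are poorly measured at d2.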
